A study of Mus musculus with 5 samples.

Results

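The matrix metalloproteinases and their tissue inhibitors were followed in colon tissue of mice with chemically induced colitis. The set was taken by gene symbol and holds 10 of the 55471 genes in the deposited tables. It comprises 3 enzymes made mainly by stromal cells (Mmp2, Mmp14 and Mmp19), 4 enzymes known for induction at injured epithelium and wounds (Mmp3, Mmp7, Mmp10 and Mmp13) and 3 inhibitors (Timp1, Timp2 and Timp3). All libraries came from male C57BL/6 mice aged 11 weeks, from a piece of colon frozen 3 days after TNBS, a reactive hapten used to set off acute ulcerating colitis. The mice received vehicle (2 libraries) or the herbicide propyzamide (3 libraries), and the study asks what propyzamide does in this model of inflammatory bowel disease. The labels do not say that each library is a separate mouse, so each p-value measures only how far these samples spread, which may be technical. Colon without TNBS was not analysed here, so induction of these genes by colitis itself could not be measured.

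Matrix metalloproteinases are zinc-dependent enzymes that are secreted or anchored in the membrane as inactive precursors and, once a propeptide is removed, cut collagens, laminins, fibronectin and many surface proteins. TIMPs are small secreted proteins that block the active site with one inhibitor per enzyme molecule. Mmp14, a membrane enzyme, activates the Mmp2 precursor with Timp2 as the adaptor, so these genes form one working unit in stroma. In inflamed gut, the enzymes of the injury group are classically transcribed by wound-edge epithelium, fibroblasts and infiltrating cells through AP-1, the Fos and Jun transcription factor dimer.

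The promoters are shown first because they set the injury group apart by sequence rather than by level. RefSeq promoter entries (GRCm38.p6) were found for 8 of the 10 genes, and the 250 bases before each gene start were searched. Matches had to be exact, so variants of a site were not counted, and a promoter without the letters may still hold one. The AP-1 letters TGAGTCA, on either strand, stood in all 4 injury-group promoters and in 0 of the other 4 (Mmp14, Timp1, Timp2 and Timp3). Over all 32851 promoter entries, 4.46% held them. TATAAA on the gene's own strand stood in the same 4 promoters and in 0 of the other 4, against 7.59% of all entries. The letters AGGAAG (read by ETS factors, either strand) did not divide the genes: they stood in 3 of 4 and 3 of 4, against 29.5% of all entries. The 100 bases that end at each RefSeq gene start are printed 5′ to 3′ with AP-1 and TATA letters in capitals, and Timp1 is added as a promoter with neither.
Mmp3 (chr9:7445722-7445821, plus strand): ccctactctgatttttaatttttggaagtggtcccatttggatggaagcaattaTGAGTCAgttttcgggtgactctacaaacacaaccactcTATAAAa
Mmp10 (chr9:7502242-7502341, plus strand): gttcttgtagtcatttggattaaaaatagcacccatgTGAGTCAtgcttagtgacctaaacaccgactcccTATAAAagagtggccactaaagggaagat
Mmp7 (chr9:7691990-7692089, plus strand): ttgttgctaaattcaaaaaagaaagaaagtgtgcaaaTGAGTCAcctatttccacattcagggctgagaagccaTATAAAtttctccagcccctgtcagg
Mmp13 (chr9:7272414-7272513, plus strand): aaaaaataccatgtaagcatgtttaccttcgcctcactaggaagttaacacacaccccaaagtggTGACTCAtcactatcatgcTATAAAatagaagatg
Timp1 (chrX:20870066-20870165, plus strand): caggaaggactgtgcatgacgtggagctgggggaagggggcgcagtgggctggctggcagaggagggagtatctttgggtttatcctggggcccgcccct
Counted from the RefSeq start, the AP-1 letters covered bases 46 to 40 before it in Mmp3, bases 63 to 57 in Mmp10 and Mmp7, and bases 35 to 29 in Mmp13, there as TGACTCA, the same site read from the opposite strand. Mmp7 has 2 entries, and the letters were in the upstream one. These 4 genes lie in a row of Mmp genes on chromosome 9 that runs for 427 kb, from Mmp13 (7272514 to 7283331) through Mmp3 (7445822 to 7455975) and Mmp10 (7502352 to 7510240) to Mmp7 (7692090 to 7699585), all on the plus strand of GRCm38 by GENCODE M21, whose start for Mmp10 lies downstream of the RefSeq one.

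The libraries were shallow and differed in make-up. Totals ran from 1573700 to 2706885 estimated counts, of which 823560 to 1328836 lay outside rRNA-like and mitochondrial genes, so that 1 count was worth 0.340 to 0.609 CPM (counts scaled to library size by TMM). Reads on olfactory and vomeronasal receptor genes, which colon should not express, stood at 0.893 and 0.564 counts per kilobase in vehicle and 0.0578, 0.461 and 0.139 in propyzamide. The groups carried different second index sequences with 0 shared, so index and treatment cannot be told apart. Genes that mark position along the gut differed between the groups: Hoxd13, a gene of the hindmost gut, had 81 and 91 counts in vehicle and 0 in each propyzamide library, and Slc10a2, the bile acid transporter of ileum, had 3 and 3 counts against 40, 116 and 128. The segment of colon sampled is not given in the sources used here, and the part of any of these differences in the results was not tested.

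Of the 10 genes, 6 had enough counts for the test and 0 of these 6 changed at an adjusted p under 0.05 by the quasi-likelihood test of edgeR (Benjamini-Hochberg adjusted), against 1.9% of all 12024 tested genes. At an unadjusted p under 0.05 there was 1 of 6, Timp2, which was higher, against 18.2% of all tested genes in either direction and 8.52% in that direction, and DESeq2 called 0 of 6, against 4.7%. The levels of these 6 overlapped between the groups in every case, whereas 37.5% of all tested genes did not overlap in CPM. Their median log2 fold change was 0.55, beside -0.018 over all tested genes, and 4 were positive and 2 negative, where 49.1% of all tested genes were positive. The 4 injury-group enzymes were below the filter on low counts. In bulk tissue, fewer cells of a type and less RNA per cell cannot be told apart. Together the 10 genes held 213 and 251 counts in vehicle and 377, 408 and 356 in propyzamide, that is 0.0213% to 0.0432% of each library once rRNA-like and mitochondrial genes are set aside.

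**Figure D1:**
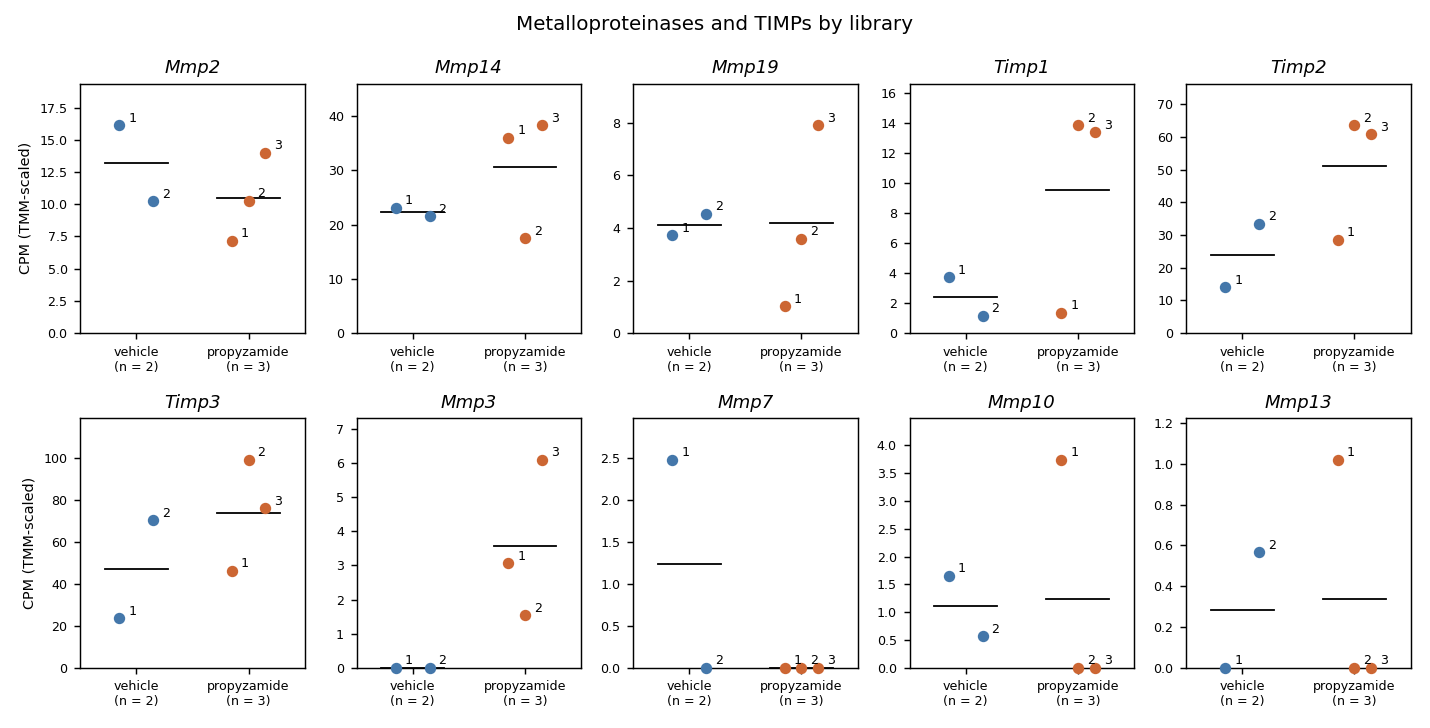
CPM (TMM-scaled, linear axis from 0, a scale of its own per gene) of each gene in vehicle (blue) and propyzamide (orange) libraries; numbers are replicate numbers and black lines are group means. Mmp3 is the gene whose groups do not overlap, at 0 counts in both vehicle libraries and 1.54 to 6.09 CPM in propyzamide. Of all tested genes, 16.7% were higher in propyzamide without overlap.

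The stromal enzymes did not pass the test. Mmp2, gelatinase A, which cuts basement-membrane and denatured collagen, stood at 16.1 and 10.2 CPM in vehicle and at 7.14, 10.3 and 14.0 CPM in propyzamide. All 3 propyzamide values were below the higher vehicle value, and 2 of them were above the lower one, so the groups overlapped. The means were 13.2 ± 4.18 (SD, n = 2) and 10.5 ± 3.44 CPM (SD, n = 3), and the log2 fold change was -0.36 ± 0.52 (SE; 95% interval -1.49 to 0.77, edgeR adjusted p = 0.781). Mmp14, the membrane-type activator of Mmp2, stood at 23.2 and 21.6 CPM in vehicle and at 36.0, 17.5 and 38.4 CPM in propyzamide. Propyzamide replicates 1 and 3 were above both vehicle libraries and replicate 2 was below both, so the groups overlapped. Its log2 fold change was 0.45 ± 0.42 (SE; 95% interval -0.47 to 1.37, edgeR adjusted p = 0.630), on means of 22.4 ± 1.13 and 30.6 ± 11.5 CPM (SD).

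Mmp19, a secreted enzyme with broad activity on basement membrane, stood at 3.72 and 4.54 CPM in vehicle and 1.02, 3.59 and 7.91 CPM in propyzamide. The propyzamide libraries lay on both sides of the vehicle pair, and the whole gene rested on 3 to 13.1 counts per library. Its log2 fold change of -0.04 ± 0.91 had a 95% interval from -2.02 to 1.94 (edgeR adjusted p = 0.989), so a change of 3.85-fold upward lay within the interval. At the background of the receptor genes, 3.16 and 1.99 counts would be expected for its length in the vehicle libraries, beside 8.77 and 8 measured.

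All 3 inhibitors had positive fold changes, and 0 of 3 passed the test. Timp1, the inhibitor most readily induced by inflammation, stood at 3.72 and 1.13 CPM in vehicle and at 1.36, 13.9 and 13.4 CPM in propyzamide. Propyzamide replicate 1 was as low as vehicle, and the other two were the highest of all 5 libraries. The counts behind these values were 9 and 2 in vehicle and 4, 27 and 22 in propyzamide. The log2 fold change was 1.86 ± 0.98 (SE; 95% interval -0.27 to 3.99, edgeR adjusted p = 0.343). Left out in turn, the libraries moved it from 1.31 (without vehicle replicate 2) to 2.96 (without vehicle replicate 1), and without propyzamide replicate 1 it was 2.38 at an edgeR adjusted p of 0.0831.

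Timp2, the soluble inhibitor that also serves as adaptor for Mmp2 activation, stood at 14.1 and 33.5 CPM in vehicle and at 28.5, 63.6 and 60.9 CPM in propyzamide. Propyzamide replicate 1 lay under vehicle replicate 2, and the other two lay above both vehicle libraries. The means were 23.8 ± 13.7 (SD, n = 2) and 51.0 ± 19.5 CPM (SD, n = 3), and the log2 fold change was 1.11 ± 0.48 (SE; 95% interval 0.06 to 2.16, unadjusted p = 0.0402 and adjusted p = 0.246 by edgeR). It ranged from 0.58 without vehicle replicate 1 to 1.85 without vehicle replicate 2. On the authors' TPM scale (transcript abundance corrected for length) Timp2 did not overlap: 6.50 and 7.15 in vehicle, and 8.54, 14.2 and 13.2 in propyzamide. The share of all tested genes without overlap in TPM was not computed.

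Timp3, the inhibitor that binds to the matrix and also blocks ADAM proteases, stood at 23.6 and 70.4 CPM in vehicle and at 46.2, 99.1 and 76.1 CPM in propyzamide. The vehicle libraries differed from each other by more than the group means did. The log2 fold change was 0.66 ± 0.48 (SE; 95% interval -0.39 to 1.70, edgeR adjusted p = 0.523), and leaving out vehicle replicate 1 gave 0.05 whereas leaving out vehicle replicate 2 gave 1.64. Timp2 and Timp3 were the pair of most similar profiles among the 6 tested genes: after centring, their log2(CPM + 1) values differed by a root mean square of 0.23 over the 5 libraries, and the least similar pair, Mmp14 and Timp1, by 1.32. Both were lowest in vehicle replicate 1 and highest in propyzamide replicate 2.

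**Figure D2:**
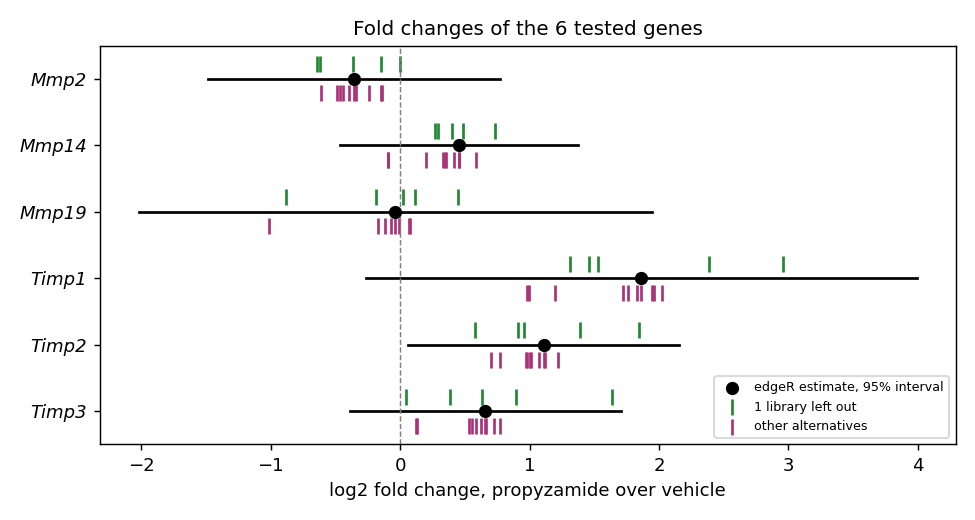
Log2 fold change of propyzamide over vehicle for the 6 tested genes, with the edgeR estimate and its 95% interval (black), the values with 1 library left out (green ticks) and under the other alternatives (purple ticks). The Timp2 interval starts at 0.06 and the other 5 intervals include 0.

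The injury-group enzymes were close to the limit of detection. Mmp3, stromelysin 1, which cuts matrix and activates other metalloproteinases, had 0 counts in both vehicle libraries and 9, 3 and 10 counts in propyzamide. It was at 3.06, 1.54 and 6.09 CPM in the propyzamide libraries, and the groups did not overlap. In that direction 16.7% of all tested genes did not overlap either, and Mmp3 was not among the tested genes. Taking 3 counts summed over vehicle as the floor, the propyzamide level of Mmp3 was 4.69-fold above that floor. The exact interval for counting error started at 2.94-fold. Mmp3 was below the filter on low counts. A fit by edgeR with no filter called 1327 of 37309 genes, 450 of them higher, with a median log2 fold change of -1.14 over all genes. In that fit Mmp3 passed at an edgeR adjusted p of 0.0379, where DESeq2 with no filter gave an adjusted p of 0.151. That edgeR call was lost without 4 of the 5 libraries (edgeR adjusted p 0.0679 to 0.670) and with background subtracted (0.221), and it was kept without propyzamide replicate 2 (0.0174).

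Mmp7, matrilysin, is an epithelial enzyme that Paneth cells of the small intestine use to activate defensins. It had 6 counts in vehicle replicate 1 and 0 in each of the other 4 libraries. With 3 counts summed over propyzamide as the floor, the vehicle level was 3.13-fold above that floor (counting interval from 1.15-fold), on 1 library. With no filter edgeR gave an adjusted p of 0.263. Of 7 Paneth-cell markers 2 were tested and 1 fell, Lyz1, where 1.21% of all tested genes fell. Lyz1 (lysozyme) had 24.8 and 5.67 CPM in vehicle, highest in replicate 1, and 0, 1.54 and 0 CPM in propyzamide (edgeR adjusted p = 0.0466). The other tested marker, Ang4, overlapped between the groups, at 13.6 and 3.40 CPM against 7.48, 7.19 and 9.13. Its log2 fold change was -0.14 ± 0.65 (edgeR adjusted p = 0.942). The defining defensins Defa17 and Defa24 were at 0 in all 5 libraries and Defa30 had 2 counts in 1 library. The summed level of the 7 Paneth markers was 43.8 and 11.9 CPM against 8.84, 8.73 and 10.3, and its part in the Mmp7 values was not tested.

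Mmp10, stromelysin 2, an enzyme of migrating wound-edge epithelium, had 4 and 1 counts in vehicle and 11, 0 and 0 in propyzamide. All propyzamide counts came from replicate 1, which also held the highest level of all. The ratio of pooled levels was 1.41 with a counting interval from 0.451 to 5.17. At the background of the receptor genes, 1.54 and 0.970 counts would be expected for the length of Mmp10 in the vehicle libraries. In propyzamide replicate 1 the expected count was 0.0995. Mmp13, the main interstitial collagenase of mice, had 0 and 1 counts in vehicle and 3, 0 and 0 in propyzamide, at or under the floor in both groups, and no fold is given. The same background would give 2.39 and 1.51 counts for the length of Mmp13 in vehicle. The propyzamide counts of Mmp10 and Mmp13 were in the same library. Of the 4 genes that share the AP-1 letters, then, Mmp3 was seen in all 3 propyzamide libraries, Mmp10 and Mmp13 in 1 of them, and Mmp7 in 0.

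Levels were compared between genes on the TPM scale. Timp3 had the highest mean over the 5 libraries (13.1 ± 2.46 TPM, SD, n = 5), followed by Mmp14 (12.1 ± 5.70), Timp2 (9.92 ± 3.56), Timp1 (8.97 ± 7.10), Mmp2 (5.39 ± 2.36) and Mmp19 (2.37 ± 2.60). The injury group followed with Mmp3 (1.12 ± 1.26), Mmp7 (0.926 ± 2.07), Mmp10 (0.920 ± 1.17) and Mmp13 (0.120 ± 0.188). Neighbours in this order differed by less than the larger of their SDs, except that the gap between Mmp2 and Mmp19 was above both. The order pools the groups and differed within them. In vehicle the mean of Mmp14 (12.9 ± 8.50 TPM) was above that of Timp3 (12.3 ± 0.389), that of Mmp2 (6.15 ± 4.32, SD) above that of Timp1 (5.41 ± 5.81), and Mmp3 was at 0 where Mmp7 was at 2.32 ± 3.27. In propyzamide the order was Timp3 (13.7 ± 3.29 TPM), Timp2 (11.99 ± 3.03), Mmp14 (11.6 ± 5.29) and Timp1 (11.3 ± 7.93), which differed by less than their spread. Forms other than the main one held part of the levels in vehicle replicate 1, among them 3.61 and 1.99 TPM of Mmp14 and 4.01 TPM of Timp3. Timp1 had the largest SD among the inhibitors, from 1.30 to 16.5 TPM. The 3 inhibitors summed to 28.6 and 20.5 TPM in vehicle libraries and to 21.6, 48.0 and 41.6 TPM in propyzamide libraries, and the 3 stromal enzymes to 30.4 and 11.2 against 21.1, 12.5 and 24.3. The 4 injury-group enzymes summed to 6.39 and 0.45 TPM in vehicle and to 4.98, 0.75 and 2.85 TPM in propyzamide.

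Ratios within a library cancel its depth and rRNA share. For Mmp2 per Timp2 the vehicle TPM ratios were 1.42 and 0.432 and the propyzamide ratios 0.560, 0.411 and 0.306, with overlap. For Mmp14 per Timp2 the vehicle ratios were 2.90 and 0.959 and the propyzamide ratios 1.85, 0.400 and 1.02. All 7 enzymes per 3 TIMPs were 1.29 and 0.569 in vehicle and 1.21, 0.276 and 0.652 in propyzamide, so the groups overlapped in each of these 3 ratios. Vehicle replicate 1 was the highest library in each. There 3.61 and 1.99 of the 18.88 Mmp14 TPM were on forms with a retained intron. On the main form Mmp14 was at 11.76 TPM beside 6.50 for Timp2 in that library. In propyzamide replicate 1 they were at 15.44 and 8.54, a ratio about as high. For Mmp2 per Timp2 the groups did not overlap when counts per kilobase of exon replaced TPM: 1.33 and 0.353 in vehicle, and 0.289, 0.186 and 0.266 in propyzamide. Within the inhibitors, the TPM ratio of Timp3 to Timp2 was 1.93 and 1.68 in vehicle. It was 1.26, 1.21 and 0.992 in propyzamide, without overlap. In vehicle replicate 1, however, 4.01 of the 12.56 Timp3 TPM rested on 1 count of a 352-base form. On the main forms, Timp3 and Timp2 were at 7.56 and 6.50 TPM in vehicle replicate 1. They were at 10.57 and 8.54 in propyzamide replicate 1, so the main-form ratio overlapped between the groups. In counts per kilobase the ratio did not overlap, at 0.802 and 1.01 against 0.775, 0.745 and 0.598. With 2 against 3 libraries an exact two-sided rank-sum test cannot go below p = 0.2, so no ratio could pass a threshold of 0.05 by it. In all, 8 such ratios were computed.

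**Figure D3:**
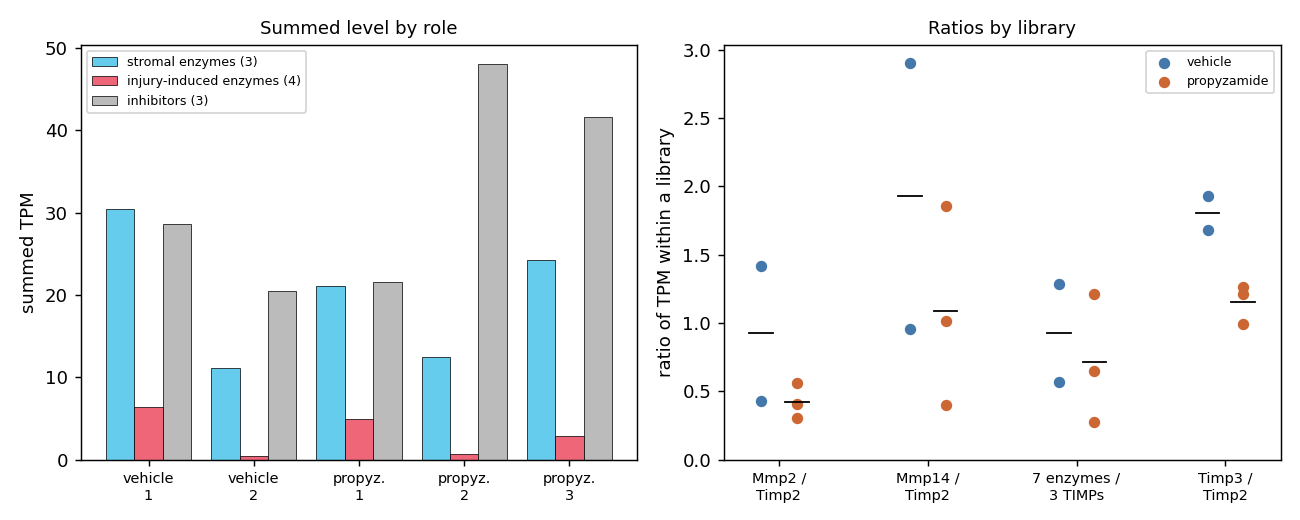
Left, summed TPM of the stromal enzymes, injury-group enzymes and inhibitors in each library (bars from 0). Right, TPM ratios within each library, vehicle blue and propyzamide orange, black lines group means. Timp3 per Timp2 is the ratio in which the groups do not overlap, at 1.68 to 1.93 against 0.992 to 1.26. In vehicle replicate 1, 4.01 TPM of Timp3 rested on 1 count of a 352-base form.

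The deposited tables resolve transcripts, and for every gene but Mmp19 a single coding form held over 90% of the counts. Protein-coding transcripts held 100% of the counts of Mmp3, Mmp7, Mmp10, Mmp13, Timp1 and Timp2, 99.0% of Mmp2, 96.2% of Timp3, 95.9% of Mmp14 and 94.6% of Mmp19. The main Mmp19 form carried 71.6% and a second coding form 23.0%. The form Mmp14-201 carried 92.1% of the Mmp14 counts. Counts on Mmp14 forms with a retained intron were 7.13 and 2 in vehicle and 1, 0 and 2 in propyzamide. For Mmp2 the full-length form Mmp2-201 carried 91.8%, and a 674-base form, Mmp2-203, had 0 counts in both vehicle libraries and 3.60, 4.62 and 0.46 in propyzamide. Short forms raise TPM: Mmp2 was at 5.85 TPM in propyzamide replicate 2 on 20 counts and at 3.09 TPM in vehicle replicate 2 on 18 counts. Likewise the 6.87 TPM of Mmp19 in propyzamide replicate 3 rested on 13.1 counts, of which 2.16 were on a 349-base form.

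Several of the genes share their locus with another gene, and whether the counting used strand is not given in the sources used here. Timp1 lies inside an intron of the neuronal gene Syn1 on the opposite strand with no exon in common, and Syn1 itself had 2 to 5 counts per library. Timp3 lies inside Syn3, again on the opposite strand, and exons of the pair overlap; Syn3 had 4 to 15.5 counts against 56.6 to 193 for Timp3. Exons of Mmp19 overlap those of Tmem198b and the antisense gene Gm47093, and exons of Mmp7 those of the antisense gene AV064505. The low counts of Mmp19 and Mmp7 are uncertain to that extent.

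Among 16 other metalloproteinases, 2 were tested and 0 passed by edgeR (0 of 2 also at an unadjusted p under 0.05). Mmp15, a membrane-type enzyme, was the most abundant of them in counts, at 34.3 and 59.6 CPM in vehicle and 43.5, 27.7 and 45.1 CPM in propyzamide (log2 fold change -0.27 ± 0.39, edgeR adjusted p = 0.779). Mmp17, also membrane-bound, stood at 0.005 ± 0.59 (edgeR adjusted p = 0.998). Mmp9, the gelatinase of neutrophils and macrophages, had 12.01 and 3 estimated counts in vehicle and 5, 0 and 1 in propyzamide. Mmp28, epilysin, had 16.4 and 3 counts against 3.90, 3 and 2, and Mmp24 had 9.57 and 6.07 against 0, 1.45 and 0. Each of these 3 was higher in CPM in both vehicle libraries than in any propyzamide library, for Mmp9 and Mmp28 by less than 1 count. Among all tested genes, 20.8% were lower in propyzamide without overlap. All 3 were below the filter on low counts. The background on receptor genes was also higher in vehicle, and its part in these counts was not tested. Mmp23 had 13 and 3 counts against 8, 8 and 2, Mmp16 had 4 and 3 against 4, 14 and 0, Mmp11 had 6 and 0 against 1, 1 and 3, and the macrophage elastase Mmp12 had 3 and 2 against 1, 3 and 2. These 4 overlapped between the groups. The neutrophil collagenase Mmp8, named after its values were seen, had 1 and 6 counts in vehicle and 0 in propyzamide.

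Of 3 further inhibitors 1 was tested. Timp4, the TIMP of muscle and fat, had 37 and 19 counts in vehicle and 0, 12 and 0 in propyzamide, at 15.3 and 10.8 against 0, 6.16 and 0 CPM. Its groups did not overlap, where 20.8% of all tested genes did not overlap in that direction, and its log2 fold change of -2.70 ± 1.11 had an unadjusted p of 0.0306 (9.65% of all tested genes were lower at an unadjusted p under 0.05) and an edgeR adjusted p of 0.219. Its sign was opposite to that of the other 3 TIMPs. Reck, a membrane-anchored inhibitor of metalloproteinases, had 5 and 3 counts in vehicle and 11, 25 and 5 in propyzamide. A2m, the plasma protease trap, had 0 and 5 counts against 1, 6 and 1.

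The related ADAM and ADAMTS proteases, which shed surface proteins and cut proteoglycans, had 14 tested members of 17, of which 0 rose, 1 fell and 13 did not pass. Their median log2 fold change was 0.09, beside -0.018 over all genes. At an unadjusted p under 0.05 there were 4 of 14, all of them lower, where 9.65% of all tested genes were lower at that threshold, and 5 of 14 were lower without overlap, against 20.8%. Beside Adamts15, the other 3 of these 4, named after their values were seen, were Adam12, Adam15 and Adamts10, at -2.00 ± 0.73, -1.85 ± 0.49 and -1.80 ± 0.68 on the log2 scale (edgeR adjusted p = 0.170, 0.0651 and 0.182). Adamts15, a secreted enzyme that cleaves the proteoglycans aggrecan and versican, fell from 33.1 and 39.7 CPM in vehicle to 4.76, 6.67 and 1.22 CPM in propyzamide. Its log2 fold change was -3.05 ± 0.54 (SE, edgeR adjusted p = 0.0192), in a test that called 1.21% of all tested genes lower. Dropping vehicle replicate 1 (edgeR adjusted p = 0.125) or vehicle replicate 2 (0.122) ended the call, as did limma on log2(TPM + 0.1) (0.0539).

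Upstream of the enzymes, 0 of 6 tested AP-1 subunits of 10 passed by edgeR, with 1 of 6 at an unadjusted p under 0.05, about the 18.2% of all tested genes. Fos stood at 39.7 and 16.5 CPM in vehicle and 86.0, 94.4 and 65.1 CPM in propyzamide, without overlap, as did 16.7% of all tested genes in that direction (log2 fold change 1.53 ± 0.43, edgeR adjusted p = 0.0785). Jund stood at 1.03 ± 0.51 and Atf3 at 0.81 ± 0.58 (edgeR adjusted p = 0.317 and 0.512). The inducing cytokines were barely seen: 1 of 11, Il33, was tested (1.16 ± 1.02, edgeR adjusted p = 0.603). Il1b had 3 and 1 counts in vehicle and 3, 0 and 6 in propyzamide, Tnf 3 and 2 against 0, 0 and 1, and Il6 8 and 5 against 0, 1 and 0; these 3 were named after their values were seen. Of the 10 tested genes for activation and induction of metalloproteinases (13 listed), 0 passed (0 also at an unadjusted p under 0.05). The smallest p-values there belonged to Cd44, a hyaluronan receptor that docks Mmp9, Lcn2, which binds Mmp9, and Tnfrsf1a, the TNF receptor, at 0.81 ± 0.44, 1.71 ± 0.93 and 0.67 ± 0.41 (edgeR adjusted p = 0.360, 0.360 and 0.422).

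In the plasminogen system, which activates several metalloproteinase precursors, 0 of 4 tested genes of 9 passed by edgeR, with 1 of 4 at an unadjusted p under 0.05, against 18.2% of all tested genes. Serpine2, an inhibitor of plasminogen activators and thrombin, stood at 10.8 and 15.9 CPM in vehicle and 16.3, 33.4 and 40.8 CPM in propyzamide (1.17 ± 0.48, edgeR adjusted p = 0.219). Plaur, the urokinase receptor, stood at 1.53 ± 0.83 and Plat, tissue plasminogen activator, at -0.52 ± 0.72 (edgeR adjusted p = 0.356 and 0.769). Cysteine cathepsins, which degrade matrix in lysosomes, had 0 of 5 tested members past the threshold (0 also at an unadjusted p under 0.05), with Ctsz, Ctsh and Ctss at -0.68 ± 0.35, -0.52 ± 0.49 and -0.28 ± 0.39 (edgeR adjusted p = 0.333, 0.634 and 0.767).

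The matrix substrates were all tested. Of 20, 1 rose, 0 fell and 19 did not pass, with a median log2 fold change of 0.74 and 17 positive, where 49.1% of all tested genes were positive. At an unadjusted p under 0.05 there were 7 of 20, all higher, against 8.52% of all tested genes in that direction. Tnc, the wound-matrix protein tenascin-C, stood at 21.5 and 18.2 CPM in vehicle and 63.6, 85.7 and 146 CPM in propyzamide (edgeR adjusted p = 0.0274). The background for a higher call was 0.69% of all tested genes. The Tnc call was lost without either vehicle library (edgeR adjusted p = 0.223 and 0.158), without propyzamide replicate 3 (0.0803) and with limma on log2(TPM + 1) and log2(TPM + 0.1) (0.227 and 0.272).

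Markers of the cells that make these proteins differed between the libraries. Summed fibroblast markers (7 genes, all seen in both groups) were 425 and 306 CPM in vehicle and 314, 849 and 1003 CPM in propyzamide. Propyzamide replicates 2 and 3, high for the summed fibroblast markers, were also those high for Timp1 and Timp2. Not every gene of that list followed the sum in propyzamide replicate 2. Col1a1 was at 18.0 CPM there against 68.2 and 37.4 in vehicle, and Thy1 at 2.57 against 3.72 and 11.9. Dcn (439 CPM) and Col3a1 (240 CPM) made up most of the sum in that library. Summed smooth-muscle markers (10 genes) were 504 and 3298 CPM in vehicle and 5660, 8313 and 9374 CPM in propyzamide. They were lowest in the library where Timp2 and Timp3 were lowest in CPM. In TPM Timp3 was lowest in propyzamide replicate 1 (10.8). All 10 smooth-muscle genes had positive fold changes, with a median of 2.06 on the log2 scale beside -0.018 over all tested genes. In all, 0 of 10 passed at an edgeR adjusted p under 0.05, but 9 of 10 had an unadjusted p under 0.05 and 8 of 10 did not overlap between the groups, where 8.52% and 16.7% of all tested genes did so in that direction. Macrophage markers (9 genes) summed to 100.1 and 87.4 CPM against 47.9, 176 and 306. Epithelial markers (8 genes) summed to 4590 and 3843 CPM against 6340, 5459 and 4844, so that all 5 libraries held epithelial RNA. Endothelial markers (7 genes) summed to 41.8 and 39.2 CPM against 28.2, 14.9 and 47.5, and fat and mesothelial markers (8 genes) to 26.9 and 13.1 against 38.4, 97.5 and 266. In the last list 2 of 5 tested genes rose, where 0.69% of all tested genes did: Cfd, the adipocyte protease adipsin, had 0 and 5 counts in vehicle and 51, 52 and 315 in propyzamide (edgeR adjusted p = 0.0417), and Cidec, a fat droplet protein, had 4 and 0 against 41, 40 and 31 (edgeR adjusted p = 0.0277). Not all fat markers of that list rose. Plin1 and Lep, both below the filter on low counts, were lower in propyzamide without overlap. Plin1 stood at 2.48 and 2.84 CPM against 0.340, 0 and 1.22. Lep stood at 2.48 and 1.70 CPM against 0 in each propyzamide library. Adipoq overlapped between the groups. Cfd alone held 192 of the 266 CPM of the list in propyzamide replicate 3. The part of any marker list in the values of the inhibitors was not tested.

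Neutrophils, a source of Mmp8 and Mmp9 in acute colitis, were hardly visible. Of 11 neutrophil markers, Mpo, Camp and Ngp were at 0 in all 5 libraries, S100a8 had 0 and 6 counts in vehicle and 2 in each propyzamide library, and S100a9 had 0 and 10 against 2, 2 and 0. Ly6g alone was high, at 102 and 317 CPM in vehicle and 94.5, 30.3 and 21.9 CPM in propyzamide (edgeR adjusted p = 0.0835), and made up most of the summed neutrophil level of 105 and 329 CPM against 96.5, 32.3 and 23.1.

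**Figure D4:**
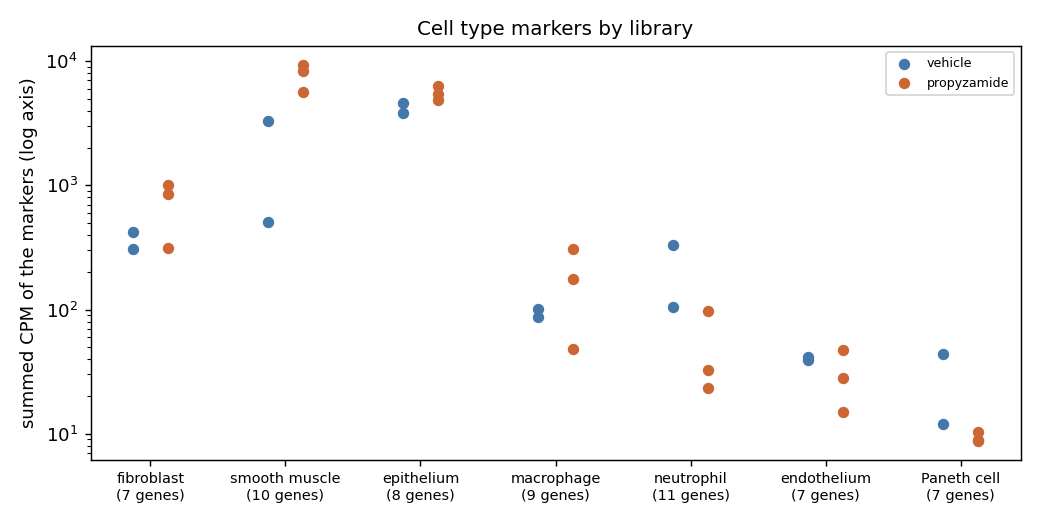
Summed CPM of each marker list in vehicle (blue) and propyzamide (orange) libraries on a log axis; each point is 1 library. Smooth-muscle markers run from 504 CPM in vehicle replicate 1 to 9374 CPM in propyzamide replicate 3, and the neutrophil sum is mostly Ly6g.

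Across the genome, the profiles most like Mmp14 among 8966 tested genes of mean log2 CPM of at least 3 were those of Mthfsl, Plcg1, R3hdm4, Cpped1 and Ndufs7, with a root mean square difference of 0.029 to 0.079 in centred log2(CPM + 1) over the 5 libraries, where the median gene differed by 0.61. For Timp1 they were C1qtnf7, Mpdz, Anpep, 1110065P20Rik and Ccdc80, at 0.13 to 0.35, where the median gene differed by 1.27. The same measure was not computed for Mmp10, which was below the filter.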

How the data were processed

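Libraries of colon RNA were made by SMART-Seq2, per the labels' protocols. The authors deposited, per the file headers, 1 RSEM table per library with estimated counts and TPM for each of 142647 transcripts. The submitters' processing notes list RSEM, kallisto and GRCm38 and no version. Annotation release and strand setting: not given in the sources used here.

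Estimated counts and TPM were summed per gene and the counts rounded. Symbols and positions came from GENCODE M21 (99.6% of gene identifiers found). Genes passing filterByExpr were tested with edgeR 4.0.16 (R 4.3.3): TMM scaling, quasi-likelihood fit with the group as its term, Benjamini-Hochberg adjustment, threshold 0.05. SEs came from the F statistic. DESeq2 1.42.0 and limma 3.58.1 were alternatives. Background came from 1438 receptor genes. The gene step was tested on simulated counts. The 10 genes, the lists and the naming rule (all 10; from each list the genes past the threshold, else up to 3 of smallest p; other metalloproteinases and inhibitors with at least 10 counts) were chosen with earlier results of these data known. Hoxd13, Slc10a2, Syn1 and Syn3 were added for context. Mmp3 without a filter (with 1 library left out, with background subtracted, and by DESeq2) was added after seeing the data. Intervals and floors cover counting error only.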

Additional observations from a re-analysis of the deposited data

How the results depend on the processing

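The count of genes changed, 229 with 83 higher and 146 lower (63.8% lower), was 565 with DESeq2, 1327 with no filter on low counts, 148 at 10 CPM in 2 samples, 490 with limma on log2(TPM + 1), 105 with background subtracted and 657 at an adjusted p under 0.1. With 1 library left out it ranged from 36 to 569. The lower share was not stable. It was 54.0% with DESeq2, 50.5% with background subtracted (52 higher, 53 lower) and 49.3% with the replicate block. It was 74.8% with upper-quartile scaling and 86.5% and 85.6% with limma at pseudocounts 1 and 0.1. Upper-quartile scaling and the 2 limma settings shifted the median of all genes to -0.14, -0.39 and -0.47. With no filter on low counts the median was -1.14. Under the alternatives that kept a filter, 5 or 6 of the 10 genes described were tested and 0 passed. With no filter on low counts all 10 were fitted, and 1 passed by edgeR (Mmp3) and 0 by DESeq2. Over 88 refits of the 6 tested genes, 81 kept the sign and 7 reversed it, none past the threshold. Mmp14 stood at -0.091 and -0.096 with limma at pseudocounts 1 and 0.1. Mmp19 stood at 0.074 with no filter, at 0.069 with limma on log2(TPM + 1), and at 0.12, 0.45 and 0.02 without vehicle replicate 2, propyzamide replicate 1 and propyzamide replicate 2, over a leave-one-out range of -0.88 to 0.45. With 1 vehicle library left, that library is assumed to vary like the propyzamide group. The cause was not tested. The labels number the samples of both groups, but nothing ties equal numbers to a shared animal or batch. With the replicate block 639 genes passed and 0 of the 6 tested genes described. Same-numbered samples had correlations of deviations of 0.171 and 0.148 over 2 pairs. Mmp19 could not be refitted at 10 CPM or with background subtracted, where it failed the filter. At these depths 1 count is worth up to 0.609 CPM, and the 4 injury-group enzymes were below the filter on low counts.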
